A study of Mus musculus with 2 samples.

Results

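In the spleen of adult C57BL/6J mice, a common inbred laboratory strain, 15112 stretches of continuous RNA coverage (contigs) ran opposite another such stretch on the other DNA strand. They were chosen by position and length: each was at least 300 and under 4000 bases long and shared 100 bases or more with a contig of the same length range on the opposite strand of the same chromosome. The list held 687468 contigs, of which 265253 fell in that range, and the members made up 5.70% of those 265253. The members formed 8376 pairs, since a contig can overlap more than 1 partner. With every contig of 100 bases or more admitted, 39609 would be members. The series consists of 2 libraries of poly(A) RNA, biological replicates 1 and 2 of a single group at 8 weeks of age. The labels describe littermates of both sexes, but Xist, the long RNA that female cells make from the inactive X chromosome, was at 0.01 TPM (a transcript abundance scaled by length and depth) in both libraries. That level goes against a contribution of female tissue to either library. The sequencing kept the strand of the RNA and read both fragment ends. Which animals gave which library is not stated in the labels, so the spread between the libraries may be technical.

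Both strands of a stretch of DNA can be transcribed. Genes that face each other with their 3′ ends (tail-to-tail) can share terminal exon sequence, genes that start back to back (head-to-head) can share a promoter region, and some genes lie wholly inside another gene on the other strand. Transcripts that overlap in these ways are called natural antisense transcripts, and some of them are known to regulate their partner.

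The contig list is pooled over the series and gives 1 level per contig, so a contig level has no replicate, no SD and no test. That level was the read bases in a contig divided by its length, times 1 constant. Reads in a contig are given as its read bases divided by the read length of 76 bases. The contigs are on the mm9 assembly and no mm9 annotation was used, so they are given by position and not by gene. The libraries held 49686331 and 51393340 expected counts in genes. The B cell markers Cd79a (1130 TPM in library 1 and 863 in library 2), Cd79b (530 and 499 TPM) and Ms4a1 (26.0 and 34.6 TPM) were present. So were the T cell markers Cd3e (36.8 and 38.5 TPM), Cd3d (20.5 and 24.9 TPM) and Cd3g (11.6 and 12.8 TPM). The red pulp macrophage markers Spic and Vcam1 had 6.7 and 21.3 TPM in library 1, and 11.1 and 31.8 TPM in library 2. The red cell genes were the highest looked up, Hbb-bs at 61091 and 100661 TPM and Hba-a2 at 76681 and 114915 TPM. All 6 markers of exocrine pancreas that were looked up were present, from 1512 TPM for Pnlip to 36979 TPM for Ctrb1 in library 1. The part of pancreatic RNA in the contig pairs was not tested.

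Where genes start back to back, the stretch between their starts can serve both. That stretch is printed for 1 head-to-head gene pair described below, Vps52, a vesicle-tethering gene, and Rps18, a ribosomal protein gene, from the promoter table of RefSeq on GRCm38.p6. In RefSeq, Vps52 starts at position 33955800 on the plus strand and Rps18 at 33955665 on the minus strand, so the starts do not overlap and leave the 134 bases of chr17:33955666-33955799 between them. The GENCODE annotation used below for the overlap of the pair differs: its outermost starts are 33955812 for Vps52 and 33956001 for Rps18, which makes the genes overlap beyond the printed stretch. Of the printed bases, 12 are exon in GENCODE. Capitals mark CCGGAA, a form of the ETS motif, on either strand.
Vps52/Rps18: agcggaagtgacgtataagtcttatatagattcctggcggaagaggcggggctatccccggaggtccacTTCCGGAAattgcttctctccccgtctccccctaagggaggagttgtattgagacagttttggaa
The stretch holds 2 matches to CCGGAA that overlap each other as a palindrome. Of 32817 promoters, 8.65% hold such a match in the same length before their start. The shorter ETS core GGAA was not searched for or marked, and it also occurs elsewhere in the stretch. CCGGAA was searched for after this sequence had been seen. The stretch holds neither the GC box GGGCGG, which 27.6% of promoters hold in that length, nor TATAAA, which 6.98% hold, on either strand. It holds 7 CG dinucleotides, beside a median of 3 over promoters. A match is a description of letters and not of a bound site.

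Since each pair joins a plus and a minus contig, the rule itself keeps the strand counts close, at 7555 plus and 7557 minus members. Most had a single partner: 13648 (90.3%) had 1, 1318 had 2, 121 had 3 and 25 had 4 or more. Joined through shared partners, they formed 6736 loci, of which 5543 held 2 contigs and 1193 held 3 or more. Of the loci, 60.6% had another within 10000 bases. The same share for other contigs in range is not given here, so this does not set the loci apart. Members made up 3.84% of contigs in the length range on chromosome 13, 3.99% on chromosome X and 7.60% on chromosome 19. Chromosome 11 held 804 pairs, the most of any chromosome, but also the most contigs in range, 21069, of which 6.80% were members. With no limit on length or overlap, 66346 contigs (9.65% of the whole list) touched an opposite-strand contig.

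The strands of a pair were usually unequal. The higher contig had a median level of 1.21 (quartiles 0.513 and 3.15) and the lower contig a median of 0.29 (quartiles 0.18 and 0.561). The median ratio was 3.29-fold, or 1.72 on the log2 scale, with quartiles of 1.76-fold and 7.15-fold. In 2547 pairs (30.4%) the levels were within 2-fold, in 1366 (16.3%) they were over 10-fold apart and in 97 (1.16%) over 100-fold apart. The strands were higher about equally often: the plus contig was higher in 4137 pairs and the minus contig in 4230, with equal levels in 9. Both contigs reached a level of 1 in 1099 pairs (13.1%) and a level of 10 in 29. The lower contig rested on a median of 37.9 reads and the higher on 295, so the ratios of weak pairs carry the larger counting error. A contig has to be covered well enough to be listed, so a strand with fewer reads than that gave no pair and the ratios are bounded from above.

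Across pairs, the level of one strand said little about the level of the other. Spearman's rank correlation of the plus against the minus level was 0.11 and Pearson's r of the log2 levels 0.13 over 8376 pairs, which share contigs, libraries and depth. The rank correlation was 0.26 over head-to-head pairs, 0.15 over tail-to-tail pairs and -0.067 over nested pairs. Over all pairs it was -0.0069 when contigs of 100 bases or more were admitted. Among the 455 pairs that shared 80% or more of their joint extent it was 0.35, and their median log2 ratio was 1.23. The length of the overlap and the ratio had a rank correlation of 0.0033.

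**Figure D1:**
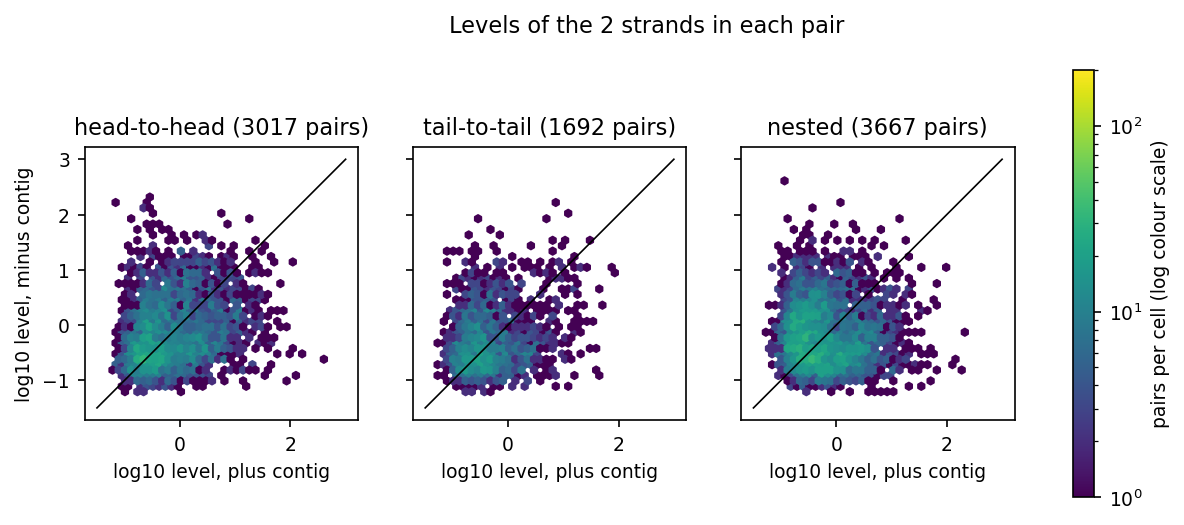
Level of the plus contig (x axis) against the minus contig (y axis) of each pair on log10 scales, in panels for 3017 head-to-head, 1692 tail-to-tail and 3667 nested pairs. The colour gives the number of pairs per cell on a log scale and the line marks equal levels; points fall on both sides of it, with the plus contig higher in 4137 pairs and the minus contig in 4230.

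The lower strand was stronger where the higher strand was stronger, but far less than in proportion. In the decile of pairs with the weakest higher contig (levels 0.094 to 0.294), the lower contig stood at a median of 73.3% of the higher. In the decile with the strongest (7.88 to 460) it stood at 6.67%. Over the same range the median lower level went from 0.153 to 1.02. Part of this is fixed by the definition, since the lower contig of a weak pair can only lie between the listing floor and the higher contig.

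**Figure D2:**
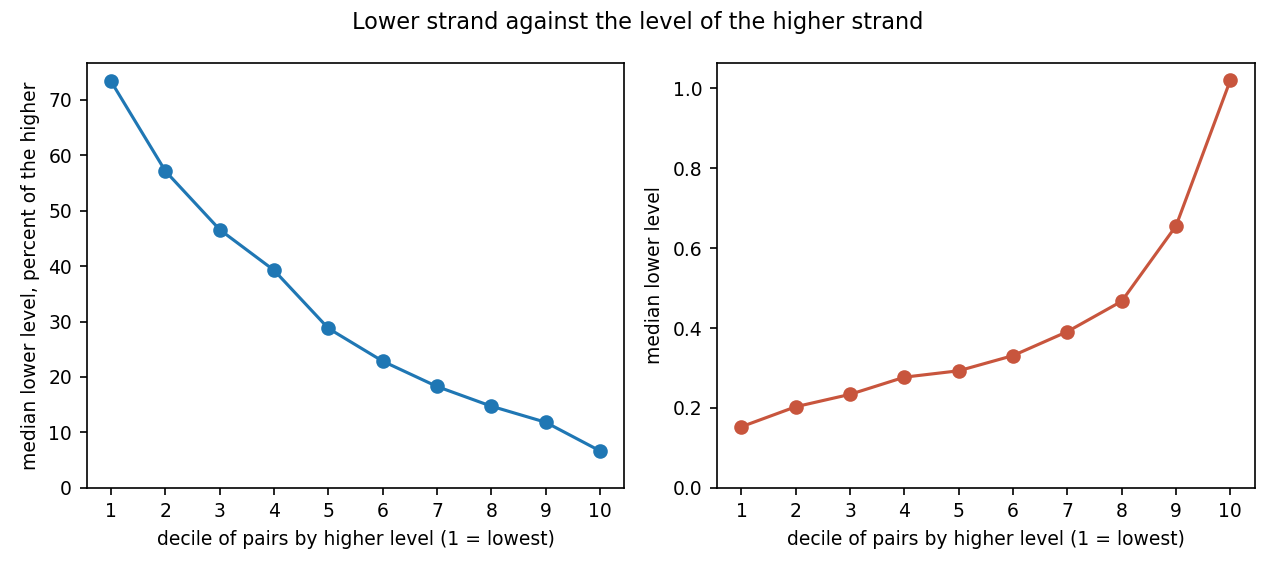
Pairs in deciles by the level of the higher contig (x axis, 1 lowest), with the median lower level as a percent of the higher level (left) and the median lower level itself (right). The percent is 73.3 in the lowest and 6.67 in the highest decile, while the lower level itself goes from 0.153 to 1.02.

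The most abundant contigs met opposite-strand contigs of far lower level. Of 482 contigs of any length at a level of 100 or more, 70 (14.5%) met any opposite-strand contig, a share close to the 14.3% at a level of 1 or more and above the 9.65% of the whole list. Taking the strongest opposite-strand contig of each of these 70, its level was at a median of 0.18% of their own. Of 58 at 1000 or more, 6 met any opposite-strand contig, with a median of 0.0712% on the same measure. Within the length range, 21 of 335 contigs at 100 or more were members (6.27%, near the 5.70% of all contigs in range), and 0 of 31 at 1000 or more.

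The pairs fell into 3 layouts. Nested pairs, in which 1 contig lies within the other, numbered 3667 (43.8%). Head-to-head pairs, whose 5′ ends overlap, numbered 3017 (36.0%), and tail-to-tail pairs, whose 3′ ends overlap, numbered 1692 (20.2%). The split depended on the length limit: with contigs of 100 bases or more, 21.1% of pairs were head-to-head and 14.7% tail-to-tail. Contig ends are where coverage breaks and not the ends of transcripts. An overlap is also at least 300 bases in a nested pair, by the length limit, but can be 100 in the others. The median fold between strands was 3.77 in nested, 3.15 in head-to-head and 2.81 in tail-to-tail pairs. Head-to-head pairs more often had both strands at a level of 1 or more (579 pairs, 19.2%) than nested pairs (380, 10.4%) or tail-to-tail pairs (140, 8.27%). Their median levels were 1.43 on the higher and 0.334 on the lower strand, against 0.81 and 0.248 in tail-to-tail pairs. These are descriptions of 1 pooled list, with no test.

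**Figure D3:**
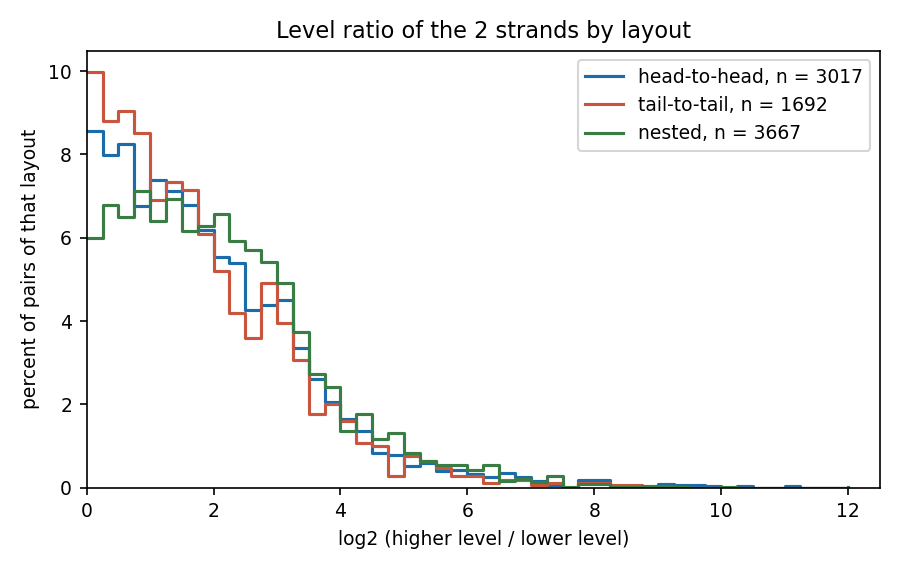
Log2 ratio of the higher over the lower level (x axis) against the percent of the pairs of that layout (y axis) in steps of 0.25, for the 3 layouts. Nested pairs have the smallest share at ratios near 0 and a median of 1.91, against 1.65 for head-to-head and 1.49 for tail-to-tail pairs.

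In nested pairs the inner contig was the lower one in 2886 of 3667 (78.7%). The inner contig is always the shorter, and over all 8376 pairs of any layout the shorter contig was also mostly the lower. There the higher contig was the longer in 71.7%. The midpoint of the inner contig lay at a median of 48.4% of the way from the 5′ end of the outer contig. It was in the middle part of the outer contig in 2098 pairs, in its 5′ part in 836 and in its 3′ part in 733, with the outer contig cut into 3 equal parts. An inner contig lies wholly inside the outer one and is at least 300 bases long, so its midpoint cannot lie close to either end. The definition thus favours the middle part.

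The tail-to-tail pair with the strongest lower strand was nearly balanced. On chromosome X, the plus contig chrX:71020815-71024265 stood at 29.6 and the minus contig chrX:71023651-71026391 at 29.8, with 615 bases in common. Junctions with an end in them carried 7311 reads on the plus and 7888 on the minus strand, so both were spliced. On chromosome 17, chr17:46819566-46820252 on the plus strand at 16.3 and chr17:46819604-46821349 on the minus strand at 16.4 shared 649 bases. On chromosome 1, contigs at 14.6 (plus, chr1:173204751-173207026) and 15.3 (minus, chr1:173206019-173209446) shared 1008 bases. The other 2 of the 5 were unequal, at 11.6 against 112 on chromosome 9 and 11.2 against 33.7 on chromosome 11.

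The 5 head-to-head pairs with the strongest lower strand were all within 2-fold, which the choice by the lower level favours. The first, on chromosome 15, had 37.2 on the plus contig chr15:76181555-76184809 and 28.2 on the minus contig chr15:76180391-76182135, with 581 bases shared. The plus contig chr17:34168643-34170810 stood at 26.5 and its minus partner chr17:34166791-34169287 at 33.8. The remaining 3 lay on chromosomes X (20.1 plus, 22.6 minus), 13 (32.2 and 20) and 2 (21.2 and 16.8).

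Of the 5 nested pairs with the strongest lower strand, 2 were within 2-fold and 3 were not. On chromosome 7, the outer plus contig chr7:52377161-52380956 stood at 17.2 and the inner minus contig chr7:52377748-52380148 at 38.1, and the inner contig carried 10975 junction reads against 829 on the outer. On chromosome 17, an inner plus contig at 13.5 (chr17:45707093-45707749) lay within a minus contig at 74.4 (chr17:45704723-45707842). The inner contig had 7 junction reads of its own strand and the outer 12026. On chromosome 8, the contigs of a nested pair were equal, both at 11.2 (plus chr8:72816620-72818241, minus chr8:72816761-72817658). On chromosome 7, an outer plus contig at 22.8 (chr7:29177165-29179180) held a minus contig at 17 (chr7:29177393-29177710). On chromosome 10, an inner plus contig at 34.2 (chr10:126718421-126719014) lay within a minus contig at 11.2 (chr10:126718358-126720009).

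The largest ratios came from strong contigs with a barely covered partner. On chromosome 9, the minus contig chr9:78325760-78329534 stood at 460 and an inner plus contig chr9:78325947-78326257 at 0.112, a ratio of 4107-fold. The plus contig rested on 668 read bases and had 0 own-strand junctions, and its irreproducibility value was 0.11. The next pairs, on chromosomes 17, 2, 10 and 9, had ratios of 2233-fold, 1440-fold, 1197-fold and 899-fold. Their lower contigs stood between 0.073 and 0.252, and 3 of these 4 had no own-strand junction.

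Of the 5 longest overlaps, 4 joined contigs within 2-fold of each other, beside 30.4% of all pairs. These 5 do not speak for long overlaps in general: over all 8376 pairs the rank correlation of overlap length and ratio was 0.0033. On chromosome 8, the plus contig chr8:125429981-125433237 at 3.5 and the minus contig chr8:125429972-125432708 at 3.78 shared 2728 bases. The plus contig chr8:86654329-86658093 at 4.71 and the minus contig chr8:86655397-86659384 at 6.02 shared 2697 bases tail-to-tail. The other 3 of the 5 longest had ratios of 1.63, 3.44 and 1.40.

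The contig with most partners, chr10:79775791-79779265 on the plus strand at a level of 0.786, overlapped 6 minus contigs at levels of 0.163 to 0.622. It belonged to the largest locus, of 10 contigs between positions 79773300 and 79781002. In it only 1 junction read lay on the plus contig. One pair was on the mitochondrial chromosome, with 6.5 on the plus and 1.32 on the minus strand, and was chosen after its values were seen.

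At the overlap limit of 100 bases nothing changed abruptly. The 85 pairs that shared at least 90 but under 100 bases, which are not members, had a median log2 ratio of 1.71, and the 89 that shared at least 100 but under 110 bases had 1.89. Their median higher levels were 0.969 and 1.0, and their median lower levels 0.226 and 0.197.

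The rule did not use splicing, which was taken from the list of 428708 splice junctions of the same libraries, each with a strand. A junction is where reads skip an intron, so its ends mark exon borders. Of all contigs in the length range, 6.13% had an own-strand junction end within 2 bases of an edge, and 6.48% of members did. The share was 9.39% of the 7128 contigs that were the higher of their pair and 3.86% of the 7598 that were the lower, or 6.06% and 1.57% from junctions with 5 or more reads. An own-strand junction end anywhere inside was found in 32.5% of all contigs in range, 48.5% of members, 66.9% of the higher and 31.1% of the lower contigs. Whole own-strand introns lay in 9.35% of all contigs in range, 18.7% of members and 8.78% of contigs outside pairs. Higher and lower contigs are split by level, and a junction needs reads across it. Among contigs outside pairs, the share with a junction end inside went from 6.41% in the lowest quartile by level to 81.7% in the highest. The part of depth in the gap between higher and lower contigs was not tested.

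Junctions of the other strand were also found in members, over which the rule places an opposite-strand contig. An other-strand junction end lay inside 6.89% of all contigs in range, 4.80% of contigs outside pairs, 34.9% of higher and 46.4% of lower contigs. The lower contigs thus held other-strand ends more often than own-strand ends (31.1%). At an edge, an other-strand end was found in 0.148% of all contigs in range, 0.0752% of those outside pairs, 0.631% of higher and 2.07% of lower contigs. The part of reads assigned to the wrong strand in these lower contigs was not tested.

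Members were also stronger and longer than the other contigs in range, with a median level of 0.505 against 0.344 and a median length of 614 against 483 bases. The share of contigs that were members went from 3.97% in the lowest quartile by level to 8.20% in the highest, and from 4.04% in the lowest quartile by length to 9.06% in the highest. A longer contig has more bases on which an opposite contig can fall, so the rule itself favours long contigs. Within each quartile by level, members still held junction ends more often than other contigs: 11.8% against 6.41%, 21.4% against 11.9%, 42.3% against 27.8% and 86.4% against 81.7%. Length within those quartiles was not matched.

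**Figure D4:**
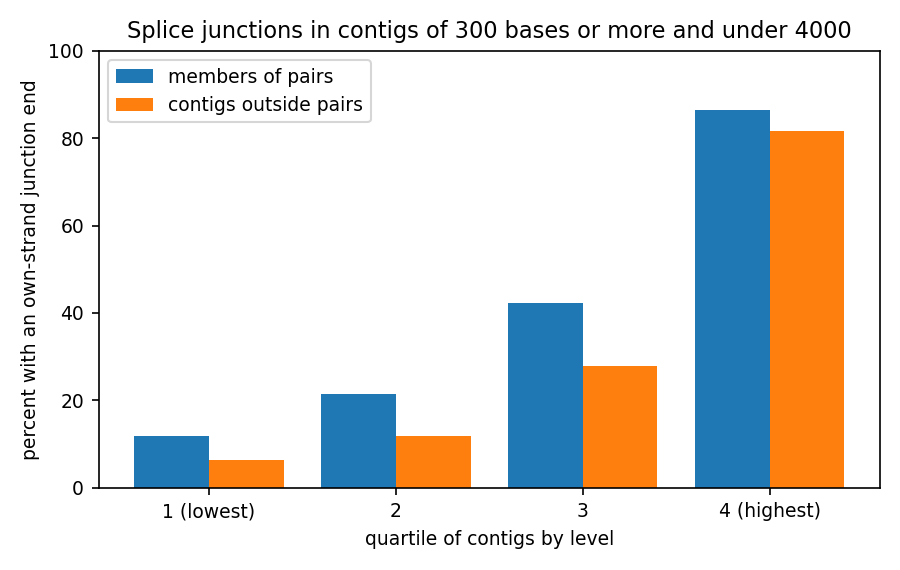
Percent of contigs with an own-strand junction end (y axis) in quartiles of all contigs in the length range by level (x axis), for members of opposite-strand pairs and for contigs outside pairs. Members stand above the others in each quartile, from 11.8% against 6.41% to 86.4% against 81.7%.

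By pair, both contigs held an own-strand junction end in 2235 pairs (26.7%), only 1 did in 3888 (46.4%) and neither did in 2253 (26.9%). Where only 1 was spliced it was the higher contig in 87.9% of pairs. Pairs spliced on both strands had median levels of 2.88 and 0.682, and 45.5% of them were head-to-head. Pairs spliced on neither had median levels of 0.421 and 0.193, a median ratio of 2.0-fold, and 31.9% were head-to-head. A junction needs reads across it, so a weak contig can lack a listed junction for want of depth. Few introns were listed on both strands, 347 of 428361.

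The irreproducibility value, so read from the name of the list format and low where replicates agree, was at or below 0.1 for 95.7% of all contigs in range. It was so for 97.5% of members, 99.9% of higher and 95.2% of lower contigs. At 0.01 the share was 71.3% of all contigs in range, 80.4% of members, 95.4% of higher and 65.5% of lower contigs, so the lower contigs lay below the background. Higher and lower contigs are split by level, and the lower had a median of 2645 read bases against 3518 over all contigs in range. The part of depth in these shares was not tested. With contigs of 100 bases or more admitted, 57.4% of lower contigs were at or below 0.1.

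The gene tables, on mm10, give values per library and were used to see named genes in the same arrangements. Of 12500 genes at 1 TPM or more in both libraries, 1494 (11.95%) were in 794 annotated pairs that share 100 or more exon bases on opposite strands. TPM covers a whole gene and not the shared bases, and the sources used here do not name the strand setting of the authors' quantification, so reads of the shared bases may be divided between the partners. Tail-to-tail pairs were 425 (53.5%), head-to-head 293 (36.9%) and nested 76 (9.57%). Among all 3015 annotated pairs, detected or not, 34.5% were tail-to-tail, 32.7% head-to-head and 32.8% nested. A limit of 0.1 TPM gave 1316 pairs and 5 TPM gave 405. The median fold between partners was 3.34 in library 1 and 3.28 in library 2. The same gene was higher in both libraries in 747 pairs, and the log2 ratio moved by 1 or less in 754. The same counts for other gene pairs are not given here, so these do not set opposite-strand pairs apart. The median absolute log2 ratio between libraries was 0.188 for genes in pairs and 0.198 for all detected genes.

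**Figure D5:**
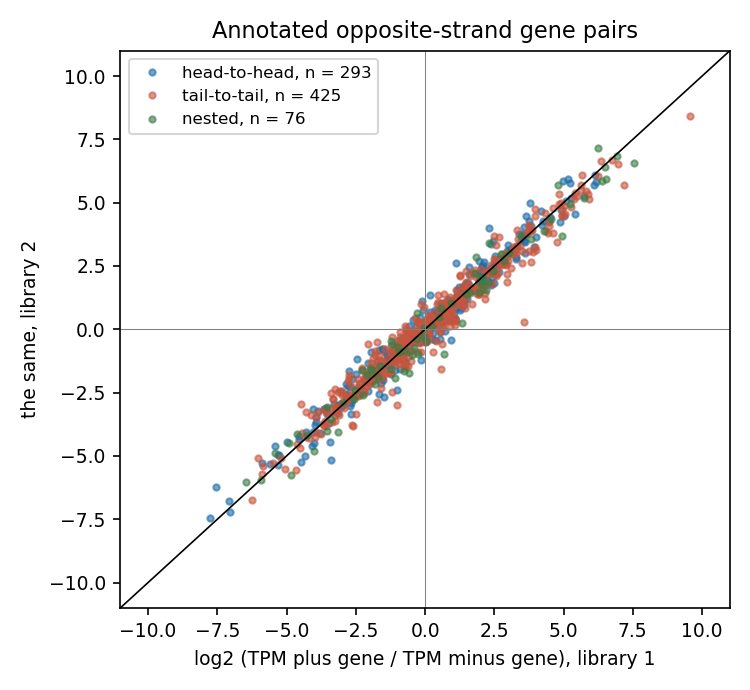
Log2 ratio of the plus gene over the minus gene of each annotated pair in library 1 (x axis) and library 2 (y axis), coloured by layout, with the line of equal ratios. The points follow the line: the same gene was higher in both libraries in 747 of 794 pairs. Other gene pairs are not shown for comparison.

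Among head-to-head pairs, the peptide transporter gene Tap1 (plus, chr17:34187553-34197225) had 160 TPM in library 1 and 129 in library 2, and the immunoproteasome gene Psmb9 (minus, chr17:34181987-34187764) had 174 and 125 TPM. They differed by no more than 0.12 on the log2 scale in either library. H2-DMa, which loads peptides on class II molecules, had 218 and 182 TPM, above the chromatin reader Brd2 at 94.5 and 83.2 TPM. Rps18 had 490 and 423 TPM against 85.1 and 67.3 TPM for Vps52. TPM is relative to all RNA of a library, and red cell genes stood higher in library 2 (Hbb-bs 61091 and 100661 TPM). TPM of a gene in the 2 libraries is thus not directly comparable. On counts scaled between the libraries, the log2 ratio of library 2 over library 1 was 0.011 for Rps18 and -0.192 for Vps52. Cebpb, a transcription factor of myeloid cells, had 145 TPM in library 1 and 61.7 in library 2, which turned its order with Tmem189 (114 and 81.6 TPM).

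Among tail-to-tail pairs, the kinase gene Stk16 (109 and 118 TPM) and the tubulin gene Tuba4a (111 and 120 TPM) were level in both libraries. Rpl28, a ribosomal protein gene, had 446 and 404 TPM beside the ubiquitin-conjugating enzyme gene Ube2s at 156 and 124 TPM. On scaled counts the log2 ratio of library 2 over library 1 was 0.053 for Rpl28 and -0.182 for Ube2s. Prdx2, an antioxidant enzyme gene, had 132 and 146 TPM, while the immediate early gene Junb on the other strand had 137 and 78.6 TPM. The clock repressor gene Nr1d1 (26.2 and 24.9 TPM) exceeded its partner Thra (18.6 and 17.9 TPM), which encodes a thyroid hormone receptor.

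Among nested pairs, the splicing factor gene Srsf2 (820 and 490 TPM) stood far above Mettl23 (32.9 and 27.9 TPM). Tbp, the TATA-binding protein gene, had 29.1 and 30.9 TPM, and Pdcd2 35.9 and 19.6 TPM. The imprinted gene Gnas reached 542 and 465 TPM beside its antisense Nespas at 0.32 and 0.3 TPM, in a head-to-head layout. Tsix, the antisense of Xist, was listed at 0 TPM in both libraries.

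A list of 13 textbook opposite-strand pairs gave 10 that share 100 exon bases or more in the annotation, and 5 of those had both genes at 1 TPM or more in both libraries. These 5 were Thra and Nr1d1 and the next 4. Surf1, a cytochrome oxidase assembly gene, had 38.5 and 31.9 TPM against 17.8 and 17.2 TPM for Surf2, which starts back to back with it. Surf2 also meets the cargo receptor gene Surf4 (178 and 117 TPM) tail-to-tail, so it overlaps a different gene at each end. Dhps, an enzyme gene of hypusine synthesis, had 76.5 and 36.5 TPM against 23.6 and 18.5 TPM for Wdr83. The repair endonuclease gene Ercc1 had 25.3 and 26.8 TPM against 7.17 and 6.49 TPM for Cd3eap. The growth factor gene Fgf2 missed the limit, at 1.91 and 0.89 TPM beside Nudt6 at 14.6 and 10.2 TPM. In each of these pairs the same gene was higher in both libraries. Trp53 and Wrap53, Igf2r and Airn, and Wt1 and Wt1os share 0 exon bases in this annotation.

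Of the 1494 genes in pairs, 18 (1.20%) differed by more than 2-fold between the libraries after scaling, 14 of them higher in library 1 and 4 in library 2. The background over all 12500 detected genes was 1.95%. The number was 84 at a limit of 0.1 TPM (1316 pairs), 6 at 5 TPM (405 pairs) and 9 among the 649 protein-coding pairs. The share over all genes at those limits is not given here, so these counts have no background. With 1 library on each side there is no replicate check of such a difference.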

How the data were processed

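Strand-specific, paired-end RNA-seq of 2 spleen libraries was analysed from the deposited files. The contig and junction lists are on mm9 per the deposited notes and have no column names, with the caller not given in the sources used here. From their values, the deposited columns were taken as contig signal (coverage level), summed read bases, read count per junction, and an irreproducibility value, read like a p-value. The deposited gene tables hold expected counts and TPM, computed by the authors from transcriptome alignments to mm10 with GENCODE M4, per the deposited notes. The sources used here do not name the quantification tool.

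Contigs of at least 300 and under 4000 bases were paired across strands at 100 shared bases or more. Gene symbols and exons came from GENCODE M21 (98.0% of 43346 genes matched). Expected counts were rounded and scaled by TMM in edgeR 4.0.16 under R 4.3.3, with a prior count of 2, and DESeq2 1.42.0 size factors were an alternative. Pairing and summaries used scipy 1.17.1, numpy 2.4.6 and pandas 2.3.3 in Python 3.11.15, and the pairing was tested on simulated data.

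The members and lists were chosen with earlier results of these data known. Named contig pairs were the 5 of each layout with the highest lower level, the 5 largest ratios, the 5 longest overlaps and the contig with most partners, on chromosomes 1 to 19 and X. Named gene pairs were drawn from those with the highest mean TPM of the lower gene and from a textbook list. No p-value was computed.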

Additional observations from a re-analysis of the deposited data

How the results depend on the processing

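Counting every contig of 100 bases or more gave 39609 members, a median log2 ratio of 1.91, a rank correlation of -0.0069 that turned the sign, 21.1% head-to-head and 14.7% tail-to-tail pairs, junctions at an edge of 13.2% of higher and 4.43% of lower contigs, and 94.9% and 57.4% at or below 0.1 in the irreproducibility value. Head-to-head and tail-to-tail shares were 37.2% and 21.6% with 50 shared bases, 33.2% and 18.1% with 200, and 31.0% and 17.4% with at least 50% of the shorter contig shared, where the rank correlation was 0.084. At 200 bases 95.7% of lower contigs were at or below 0.1, and the threshold 0.01 gave 65.5% of lower and 95.4% of higher contigs. With each contig in 1 pair only, the rank correlation was 0.145 and the tail-to-tail share 18.5%. Edge junctions were found in 12.8% of higher and 5.09% of lower contigs within 10 bases, in 66.9% and 31.1% anywhere inside, and in 6.06% and 1.57% with 5 or more reads; the higher contigs led in each.

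Gene pairs numbered 1316 at 0.1 TPM and 405 at 5 TPM, with 47.5% and 57.5% tail-to-tail, median log2 ratios of 2.62 and 1.25, and 84 and 6 genes over 2-fold apart. Tail-to-tail shares were 58.3% at 200 shared exon bases and 60.3% among protein-coding genes. Median log2 ratios were 1.74 at 50 bases, 1.80 at 200 bases and 1.61 among protein-coding genes, of which 9 were over 2-fold apart. No background share over all genes is given for the numbers of genes over 2-fold apart at these limits. Leaving out each library gave 824 to 841 pairs and median log2 ratios of 1.74 to 1.80. The cause of these shifts was not tested. The other 40 alternative values stayed within their interval or within 1.5 times. No paired analysis was possible because the series has a single group. Ratios with few reads on the lower contig, which had a median of 37.9 reads, carry more counting error.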
